A study of Homo sapiens with 3 samples.

Results

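Glycolysis and hypoxia-response genes were examined in a human line of renal cell carcinoma, TK-10. The genes were chosen by name as 46 symbols for glucose and lactate transport, the enzymes of glycolysis, targets of the hypoxia-inducible factors (HIF), the HIF pathway itself and the glucose-sensing targets TXNIP and ARRDC4. Of these, 45 had a probe, among 22439 genes with a probe on the array, and ALDOA was not analysed here because no probe was matched to it. TK-10 cells were exposed for 48 h to vehicle (0.1% DMSO), to cordyceps at 750 ug/mL or to sunitinib, a kinase inhibitor, at 10 uM, and each condition was measured on 1 single-colour Agilent array. The labels name cordyceps, the fungus that yields the adenosine analogue cordycepin, where the study's methods name cordycepin at another dose, and the array is called the cordyceps array here. The cells of all 3 conditions had been grown, per the labels, in serum-containing DMEM with nicotinamide, zinc sulfate and troglitazone, an agonist of the nuclear receptor PPARγ. Sunitinib is used in the clinic against renal cancer for its action on receptors for vascular and platelet-derived growth factors.

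No replicate array was used. Each comparison is therefore of 1 array with 1 array, without a test, a p-value or a replicate SD, and precision is limited by the number of arrays. Levels are given as multiples of the array's own 75th percentile of processed intensity, and ratios as log2 of treated over vehicle on that scale. That percentile was 165 intensity units on the vehicle array, 138 on the cordyceps array and 78.2 on the sunitinib array. A gene was compared when its brightest probe was well above background, by the scanner software's own flag, on at least 1 of the 2 arrays, and a change of more than 2-fold was counted. The error given with a ratio combines the software's error estimates for both spots and covers the spot measurement, not cultures or RNA preparations. For bright probes it was about 0.20 on the log2 scale, with a 95% limit of about 0.40. A ratio called within or past the error is within or past that 95% limit. Repeated spots on an array spread less than this error. For probes with 10 spots, the median SD of the log2 signal between spots was 0.049 with vehicle, 0.056 with cordyceps and 0.059 with sunitinib. On an array, 37.8% to 45.5% of the 58201 probes passed that flag, and no spot was saturated. Markers of renal epithelium were present, with 14 or 15 of 17 well above background on each array, including PAX8, PAX2, LRP2 and KRT18, while CDH1 was not detected. Among markers of other cells, 1 or 2 of 4 for leukocytes, 2 of 3 for endothelium and 3 of 4 for fibroblasts were detected. The summed level of the fibroblast markers was 40.9 on the vehicle array, 12.8 on the cordyceps array and 12.2 on the sunitinib array, and its part in the results below was not tested. Within it COL1A1 and DCN were lower with both treatments, by log2 ratios of -2.06 and -1.81 with cordyceps and -2.71 and -3.43 with sunitinib, while PDGFRB had -0.19 and 0.66. With the mean of its probes, the cordyceps ratio of DCN was -0.90, within 2-fold. COL1A2 was well above background on no array. RNA from a whole culture does not show which cells carried a transcript. TK-10 is a cell line, so a detected marker of another cell type does not by itself show that such cells were present. The summed levels ranged over the arrays from 2.39 with sunitinib to 4.50 with vehicle for the leukocyte markers and from 1.16 with cordyceps to 1.27 with vehicle for the endothelial markers. The leukocyte sum was mostly CD14, with a log2 ratio of -1.50 with sunitinib, where PTPRC had 2.39 from a low vehicle level of 0.112. The endothelial sum hid a difference with sunitinib. VWF was at least 2.51-fold lower there, a call lost with normexp background correction and with the mean of its probes, and CDH5 had a log2 ratio of 0.23. Among the renal markers, CDH6, CDH16 and HAVCR1 were lower with cordyceps by log2 ratios of -2.38, -2.24 and -1.22, and MME was higher by 1.15. The cordyceps call of HAVCR1 was lost with scaling to the median. That of MME was lost without scaling and with normexp background correction. HAVCR1 had -1.77 with sunitinib, and AQP1, not well above background there, was at least 2.11-fold lower, a call lost with normexp background correction. A bright streak on the cordyceps array touched 550 gene spots but no probe of the 45 genes.

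Glycolysis splits glucose into pyruvate in the cytosol, and the pyruvate is either reduced to lactate and exported or oxidised in mitochondria. When oxygen is low, HIF1A or EPAS1 (HIF-2α) escapes hydroxylation by the EGLN enzymes and degradation through the VHL protein, pairs with ARNT and raises the transcription of target genes. Those of HIF1A include glucose transporters, glycolytic enzymes and PDK1. In clear cell renal carcinoma VHL is often lost, and HIF targets are then expressed in the presence of oxygen. TXNIP, which restrains glucose uptake, and its relative ARRDC4 are transcribed under the glucose-sensing factors MondoA and ChREBP.

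HIF binds a short core in DNA, A or G followed by CGTG, and MondoA and ChREBP bind a pair of CACG boxes separated by a short gap. Promoters of 5 genes are shown because they stand for the patterns described below: HK2 and PDK1 were lower with sunitinib, ANGPTL4 and EPAS1 were higher, and TXNIP carries the paired boxes. Each sequence is from RefSeq, build GRCh38.p14, covers 250 bases before and 50 bases after an annotated start, is written 5′ to 3′ on the gene's strand, and has in capitals the matches to ACGTG or GCGTG on either strand and, in TXNIP, also the stretch from CACG over 7 bases to CACG.
HK2, chr2:74834920-74835219, plus strand: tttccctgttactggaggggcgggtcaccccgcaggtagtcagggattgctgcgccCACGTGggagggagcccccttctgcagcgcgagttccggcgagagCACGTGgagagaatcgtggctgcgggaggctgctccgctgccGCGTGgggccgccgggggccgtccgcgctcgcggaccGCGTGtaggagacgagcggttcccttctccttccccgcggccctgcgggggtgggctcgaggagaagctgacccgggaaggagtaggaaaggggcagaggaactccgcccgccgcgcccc
PDK1, chr2:172555840-172556139, plus strand: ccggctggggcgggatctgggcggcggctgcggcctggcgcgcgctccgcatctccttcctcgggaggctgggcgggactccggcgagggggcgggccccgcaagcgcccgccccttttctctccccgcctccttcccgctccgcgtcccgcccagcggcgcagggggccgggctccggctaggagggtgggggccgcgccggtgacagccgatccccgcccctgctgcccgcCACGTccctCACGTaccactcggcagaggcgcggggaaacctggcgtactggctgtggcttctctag
ANGPTL4, chr19:8363905-8364204, plus strand: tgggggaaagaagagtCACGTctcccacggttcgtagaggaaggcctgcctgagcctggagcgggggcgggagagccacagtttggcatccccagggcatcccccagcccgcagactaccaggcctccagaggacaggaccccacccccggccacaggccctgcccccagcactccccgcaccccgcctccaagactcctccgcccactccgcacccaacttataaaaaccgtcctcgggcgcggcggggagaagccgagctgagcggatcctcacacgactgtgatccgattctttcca
EPAS1, chr2:46297157-46297456, plus strand: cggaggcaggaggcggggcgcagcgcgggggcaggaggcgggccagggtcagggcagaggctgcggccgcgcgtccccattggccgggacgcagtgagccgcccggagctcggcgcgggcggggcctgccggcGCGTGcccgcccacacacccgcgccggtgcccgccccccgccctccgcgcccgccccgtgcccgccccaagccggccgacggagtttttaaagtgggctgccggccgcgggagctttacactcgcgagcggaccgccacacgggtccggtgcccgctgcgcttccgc
TXNIP, chr1:145996530-145996829, minus strand: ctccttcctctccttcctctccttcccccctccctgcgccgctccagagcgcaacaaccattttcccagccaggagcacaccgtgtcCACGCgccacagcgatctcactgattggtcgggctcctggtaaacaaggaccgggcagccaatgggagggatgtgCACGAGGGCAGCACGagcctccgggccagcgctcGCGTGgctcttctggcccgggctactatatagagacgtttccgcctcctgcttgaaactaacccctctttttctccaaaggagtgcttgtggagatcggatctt

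The HK2 window shown held 6 matches to the core, where each CACGTG counts once on either strand and so gives 2 of them. The PDK1 window shown held 2 matches, and those of ANGPTL4 and EPAS1 held 1 each. HK2, PDK1 and TXNIP each had another window, and the one with more matches is shown. The other windows held 3 matches for HK2, 0 for PDK1 and 1 for TXNIP. RefSeq windows were found for 40 of the 46 genes, 71 windows in all, and SLC16A1, SLC2A3, VHL, NDRG1, HILPDA and BNIP3L were not in the table. ACGTG was found in 39.4% of the 71 windows and in 21.4% of all 35116 windows, and GCGTG in 42.3% and 36.5%. Either core was found in 69.0% of the windows and in 48.4% of all windows. By gene, 36 of the 40 had either core in at least 1 window, beside 52.4% of 27305 genes. A gene with more windows has more places for a match. The 40 genes had 71 windows, and the 27305 genes had 35116, so the shares by gene are not alike in this. The paired CACG boxes, searched on both strands, were found in 2.82% of the windows, those of P4HA1 and TXNIP, and in 0.609% of all windows. No relation between matches and ratios was tested. LDHA, BNIP3 and ARRDC4, each with 6 matches in 1 window, stayed within 2-fold in both comparisons, and P4HA2, without a match, was lower than vehicle with sunitinib.

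Of 42 genes compared, 32 stayed within 2-fold on both treated arrays, and ALDOC, CA9 and EGLN3 were well above background on no array. The share of all genes within 2-fold on both arrays was not computed. With cordyceps 20 of 40 measured members were within the error, beside 9321 of 13031 genes measured. With sunitinib 21 of 40 were, beside 7213 of 12995. On the cordyceps array, ANGPTL4 and NDRG1 were more than 2-fold higher and PFKL and CA12 were more than 2-fold lower, which is 4.76% of 42 in each direction beside 2.99% higher and 2.76% lower among 14786 genes compared. The median log2 ratio was -0.06, beside 0.00 for all genes, and measured ratios ran from -1.30 to 1.19. Either way, 4 of 42 genes were past 2-fold, beside 5.75% of all genes compared. On the sunitinib array, NDRG1, ANGPTL4 and EPAS1 were higher and HK2, SLC16A1, PDK1, CA12, P4HA2 and PFKFB3 were lower. That is 7.14% higher and 14.3% lower, beside 6.5% and 6.53% of 14912 genes compared, with a median of -0.18 beside 0.00 and a range from -2.52 to 1.69. Either way, 9 of 42 were past 2-fold, beside 13.0% of all genes compared. The same direction past 2-fold on both arrays was seen for ANGPTL4, NDRG1 and CA12, and in no gene were the directions opposite. The 2 comparisons share the vehicle array, and the matching share over all genes was not computed. This overlap is therefore not read as a trait of these genes.

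The split depended on the scaling of the arrays. With each array scaled to its median, 4 genes were higher and 1 was lower with cordyceps, and 3 and 11 with sunitinib. With the deposited values left unscaled, where the median over all genes itself lay at -0.24 for cordyceps and -1.06 for sunitinib, the numbers were 0 and 4 with cordyceps and 0 and 29 with sunitinib. HK2, SLC16A1 and P4HA2 with sunitinib, and PFKL with cordyceps, stayed past 2-fold under all 10 alternatives that recompute the ratio. SLC2A1, ADM, P4HA1 and VHL with sunitinib passed 2-fold with scaling to the median, without scaling and with normexp background correction. Of the ratios past their error, those of PFKFB4, BNIP3 and MXI1 with sunitinib changed sign without scaling, to -0.22, -0.27 and -0.11, and several of the ratios within the error changed sign with the scaling, among them those of GAPDH, PGK1, LDHB, HIF1A and TXNIP with sunitinib.

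**Figure D1:**
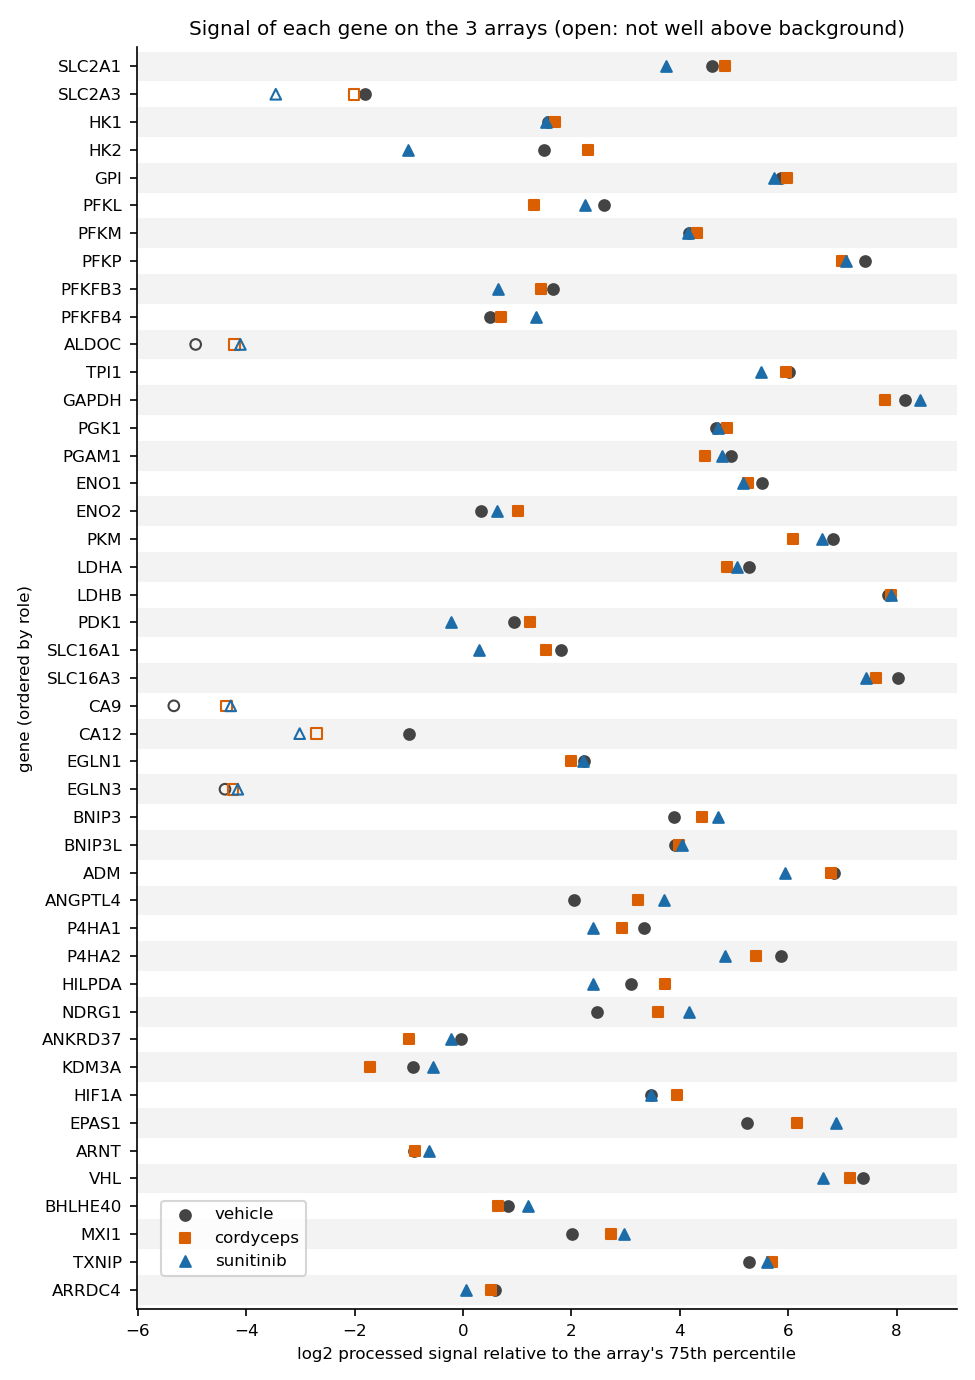
Log2 processed signal of each gene on the 3 arrays (1 array a condition) relative to the array's 75th percentile, with open symbols for probes not well above background. Most genes have their 3 symbols close together, while HK2 with sunitinib stands apart on the left of its row and ANGPTL4, NDRG1 and EPAS1 have both treated arrays to the right of vehicle.

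Glucose uptake was compared first. SLC2A1 (GLUT1), the main glucose transporter of most cultured cells, stood at 24.2 times the 75th percentile on the vehicle array, 28.5 on the cordyceps array and 13.5 on the sunitinib array. Its log2 ratio was 0.23 with cordyceps, within the 95% limit of the error, and -0.85 with sunitinib, past that limit but short of 2-fold. SLC2A3 (GLUT3), a transporter of high affinity, was detected on the vehicle array alone, at 0.286, beside 0.248 on the cordyceps array and 0.0912 on the sunitinib array. Its bounds of -0.21 and -0.28 on the log2 scale lay within the 95% limits of the error, 0.82 and 1.94, so no difference was measurable.

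Hexokinase traps glucose as glucose 6-phosphate. HK2, the inducible form and a HIF target, had a level of 2.83 on the vehicle array, 4.94 on the cordyceps array and 0.494 on the sunitinib array. The cordyceps array was the highest of the 3 and the sunitinib array the lowest, and none of the other 39 genes measured had a lower ratio with sunitinib. HK2 was 5.73-fold lower with sunitinib, a log2 ratio of -2.52 with an error of 0.27, while with cordyceps its log2 ratio was 0.80, past the error but within 2-fold. With scaling to the median, the cordyceps ratio was 1.02. A second HK2 probe was too dim to be measured on all 3 arrays. HK1, the constitutive form, had levels of 2.98, 3.22 and 2.87 on the vehicle, cordyceps and sunitinib arrays, and its ratios of 0.12 and -0.05 were within the error.

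Phosphofructokinase commits the sugar to glycolysis. PFKL, the liver-type subunit, had levels of 6.07 on the vehicle array, 2.47 on the cordyceps array and 4.74 on the sunitinib array. It was 2.46-fold lower with cordyceps (log2 ratio -1.30, error 0.21), and its log2 ratio of -0.36 with sunitinib was within the error. PFKP, the platelet-type subunit, had levels of 171, 128 and 135 in the same order, with log2 ratios of -0.42 and -0.35, and PFKM, the muscle-type subunit, had ratios of 0.15 and -0.02. The 3 subunit genes thus differed with cordyceps, and PFKL alone was past 2-fold.

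The PFKFB enzymes make and break down fructose 2,6-bisphosphate, the activator of phosphofructokinase. PFKFB3, the form with the strongest kinase activity, had levels of 3.17 on the vehicle array, 2.70 on the cordyceps array and 1.56 on the sunitinib array, and was 2.03-fold lower with sunitinib (log2 ratio -1.02, error 0.21). The 2-fold mark lay inside the error of that ratio, and the mean of its probes gave -0.51. PFKFB4, another HIF target, went the other way with sunitinib, with levels of 1.41, 1.63 and 2.55 and log2 ratios of 0.21 and 0.86, the second past the error but within 2-fold.

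From triose phosphate isomerase to lactate dehydrogenase, none of 9 member genes passed 2-fold in either comparison, where 5.75% and 13.0% of all genes did. With quantile normalization PKM with cordyceps passed it, at -1.01. ENO3, an enolase outside the members, was past 2-fold with sunitinib, at -1.55. GAPDH, the enzyme that reduces NAD+ in glycolysis, had levels of 286, 222 and 344 on the vehicle, cordyceps and sunitinib arrays, and its log2 ratios of -0.36 and 0.27 were within the error. PGK1, which makes the first ATP of this stretch, had levels of 25.4, 29.2 and 26.2 and log2 ratios of 0.20 and 0.05. GPI, which turns glucose 6-phosphate into fructose 6-phosphate before this stretch, had levels of 58.3, 63.1 and 53.4 and ratios of 0.11 and -0.13. These 3 genes are common reference genes or housekeeping enzymes, and none moved past its error on either array.

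TPI1, which interconverts the triose phosphates, had levels of 64.5, 61.9 and 45.0, with a log2 ratio of -0.52 with sunitinib that was past the error. PGAM1, the phosphoglycerate mutase, had levels of 30.9, 22.2 and 27.5, and its log2 ratio of -0.48 with cordyceps was past the error. ENO1, the common enolase, had levels of 46.0, 38.2 and 36.0 and ratios of -0.27 and -0.35, both within the error. ENO2, the neuronal-type enolase, differed from it with cordyceps, with a log2 ratio of 0.68.

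PKM, the pyruvate kinase, had levels of 114, 68.1 and 99.1, and its log2 ratio of -0.74 with cordyceps was the lowest of the 9 genes. LDHB, one of the lactate dehydrogenase subunits, had levels of 228, 238 and 239, and the arrays hardly differed. LDHA, the HIF-responsive subunit, had log2 ratios of -0.41 with cordyceps, just past the error, and -0.23 with sunitinib. Over the 15 enzymes compared from hexokinase to lactate dehydrogenase, the median log2 ratio was -0.06 with cordyceps and -0.17 with sunitinib, with 1 gene past 2-fold in each, PFKL and HK2. Each was lower and makes 6.67% of the 15, beside 2.76% and 6.53% of all genes compared. Within the error were 8 of the 15 with cordyceps and 13 with sunitinib, beside 9321 of 13031 and 7213 of 12995 genes measured. With cordyceps 5 of the 15 were lower past the error (33.3%, beside 13.5% of all genes) and 2 were higher (13.3%, beside 15.0%).

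**Figure D2:**
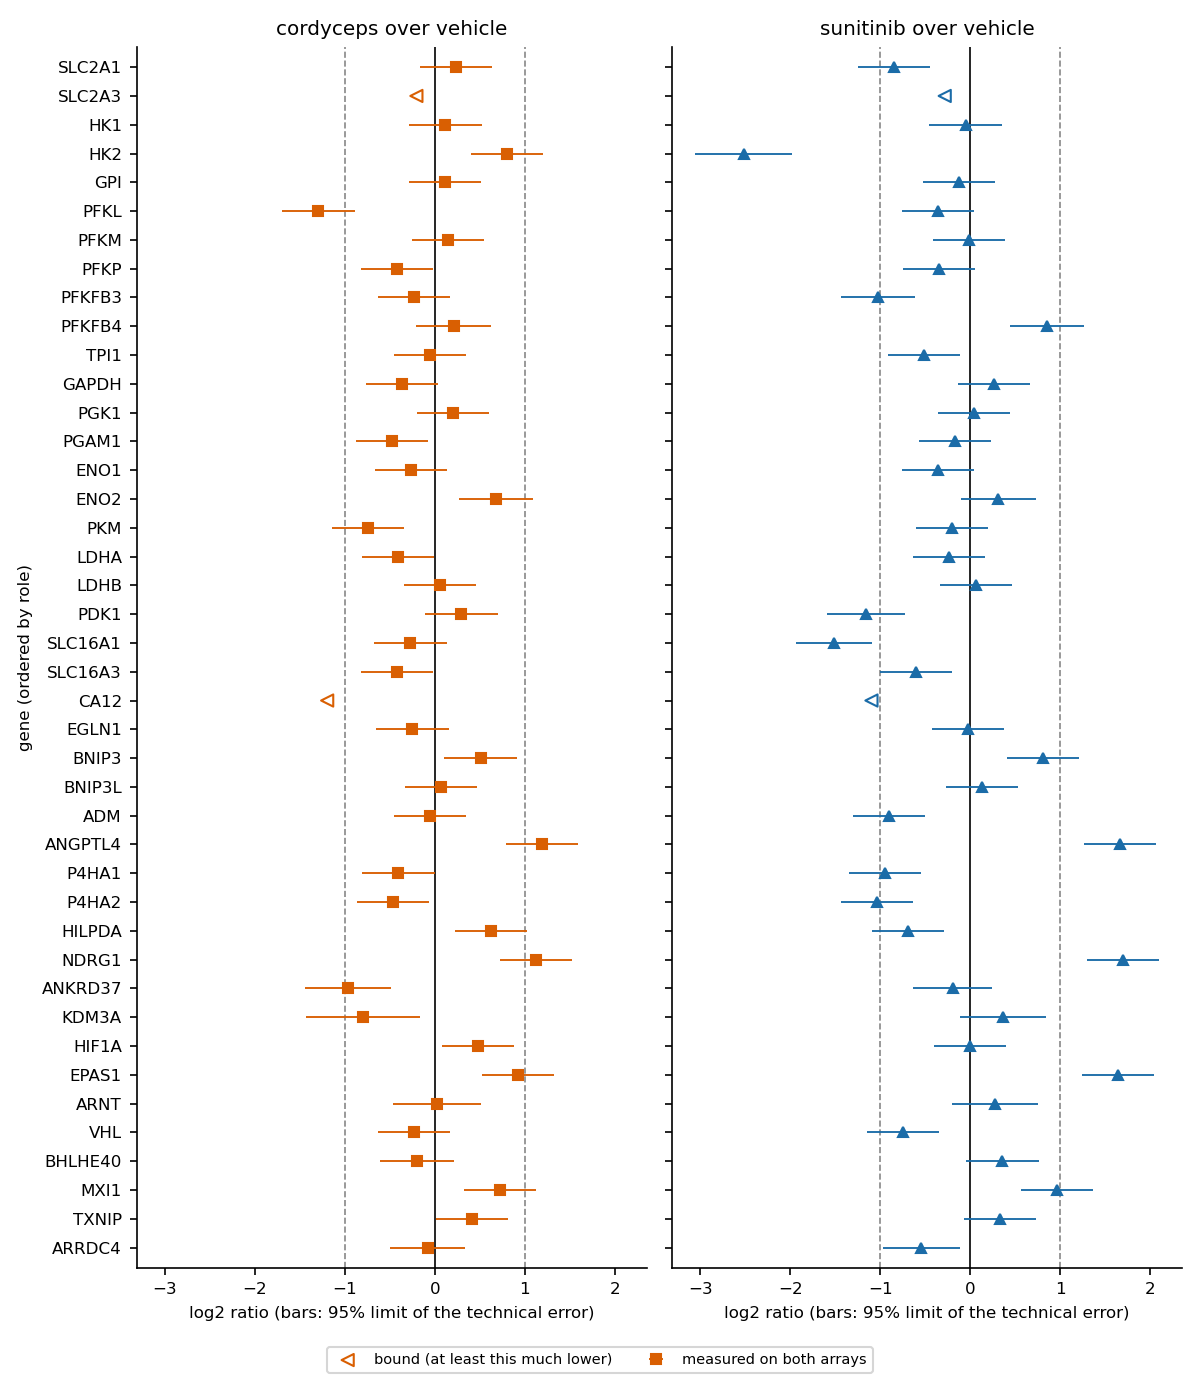
Log2 ratio of treated over vehicle for the 42 genes compared, cordyceps on the left and sunitinib on the right, with bars for the 95% limit of the technical error, dashed lines at 2-fold and open symbols for bounds. In the right panel HK2 at -2.52 and SLC16A1 at -1.51 lie left of the lines and ANGPTL4, NDRG1 and EPAS1 right of them, while the rows from TPI1 to LDHB lie between the lines in both panels.

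Export of lactate and entry of pyruvate into mitochondria were next. SLC16A1 (MCT1), a monocarboxylate transporter, had levels of 3.51 on the vehicle array, 2.90 on the cordyceps array and 1.23 on the sunitinib array, so that it was 2.86-fold lower with sunitinib (log2 ratio -1.51, error 0.22). SLC16A3 (MCT4), the HIF-responsive lactate exporter, had levels of 262, 196 and 172 and log2 ratios of -0.42 and -0.60, both past the error and both within 2-fold. PDK1, a kinase that switches off pyruvate dehydrogenase, had levels of 1.92, 2.35 and 0.858 and was 2.23-fold lower with sunitinib (log2 ratio -1.16, error 0.22). The sunitinib array had the lowest level of all 3 genes. With normexp background correction the log2 ratio of PDK1 was -0.94, no longer past 2-fold.

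Carbonic anhydrases CA9 and CA12 balance acid at the cell surface. CA12 was well above background at 0.502 on the vehicle array and on neither treated array, and was at least 2.29-fold lower with cordyceps and at least 2.14-fold lower with sunitinib (log2 bounds -1.20 and -1.10, errors 0.50 and 0.64). The sunitinib bound lay within its 95% error limit of 1.25, and the cordyceps bound was past its limit of 0.97. This bound fell short of 2-fold with normexp background correction in both comparisons, and with scaling to the median with cordyceps. CA9, a marker of clear cell renal carcinoma and a HIF1A target, was too dim to be measured, at 0.0247, 0.0484 and 0.0512 on the vehicle, cordyceps and sunitinib arrays.

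ANGPTL4 and NDRG1 were higher on both treated arrays. ANGPTL4, a secreted inhibitor of lipoprotein lipase and a target of both HIF and the PPAR receptors, had levels of 4.12 on the vehicle array, 9.41 on the cordyceps array and 13.0 on the sunitinib array. It was 2.29-fold higher with cordyceps (log2 ratio 1.19, error 0.20) and 3.16-fold higher with sunitinib (log2 ratio 1.66, error 0.20). NDRG1, a stress-responsive gene that hypoxia and iron depletion induce, had levels of 5.55, 12.1 and 18.0 and was 2.18-fold and 3.23-fold higher (log2 ratios 1.12 and 1.69). In both genes the vehicle array was lowest and the sunitinib array highest. Without scaling between the arrays their log2 ratios were 0.94 and 0.87 with cordyceps and 0.59 and 0.62 with sunitinib, above 0 but within 2-fold.

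The collagen prolyl hydroxylase subunits went the other way with sunitinib. P4HA2, which modifies collagen before it folds, had levels of 58.3, 42.2 and 28.5 on the vehicle, cordyceps and sunitinib arrays and was 2.04-fold lower with sunitinib (log2 ratio -1.03, error 0.20). A second P4HA2 probe gave -1.02, and the 2-fold mark lay inside the error of both. P4HA1, the other catalytic subunit, had a log2 ratio of -0.95 with sunitinib and -0.40 with cordyceps. ADM, which encodes the vasodilator peptide adrenomedullin, had log2 ratios of -0.05 with cordyceps and -0.90 with sunitinib. HILPDA, a lipid droplet protein, had log2 ratios of 0.62 with cordyceps and -0.70 with sunitinib. HILPDA and HK2 were the members with ratios of opposite sign that were both past the error.

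BNIP3, a mitophagy receptor, had log2 ratios of 0.51 and 0.81 with cordyceps and sunitinib, past the error in both, whereas its relative BNIP3L had 0.07 and 0.13. ANKRD37, a HIF target of unclear function, and KDM3A, a histone demethylase, were lower with cordyceps by log2 ratios of -0.97 and -0.80, past the error, and were within the error with sunitinib. MXI1, an antagonist of MYC, had log2 ratios of 0.72 and 0.96, and its 3 probes ranged from 0.50 to 0.80 with cordyceps and from 0.96 to 1.87 with sunitinib. BHLHE40, a transcriptional repressor of the circadian clock, had ratios of -0.20 and 0.35, both within the error.

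The genes of the HIF pathway itself differed most at EPAS1. EPAS1 had levels of 37.8 on the vehicle array, 71.9 on the cordyceps array and 118 on the sunitinib array, and was 3.12-fold higher with sunitinib (log2 ratio 1.64, error 0.20). With cordyceps its log2 ratio was 0.93, past the error and within 2-fold, and 1.15 with scaling to the median. HIF1A had levels of 11.0, 15.4 and 11.0, with log2 ratios of 0.48 and 0.00, and its second probe gave 0.54 and -0.31. Without scaling between the arrays, EPAS1 was at 0.57 with sunitinib.

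ARNT, the partner of both factors, had levels of 0.535, 0.542 and 0.648 and ratios of 0.02 and 0.28 within the error. VHL, the substrate receptor of the ubiquitin ligase for HIF, had levels of 167, 142 and 99.9 and log2 ratios of -0.24 and -0.74, the second past the error. EGLN1 (PHD2), the main HIF prolyl hydroxylase, had levels of 4.72, 3.97 and 4.64 and ratios of -0.25 and -0.02. EGLN3 (PHD3), a HIF-induced hydroxylase, stood at 0.0476, 0.0529 and 0.0561 and was too dim to be measured on all 3 arrays.

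TXNIP had levels of 39.0 on the vehicle array, 51.9 on the cordyceps array and 48.9 on the sunitinib array. Its log2 ratio was 0.41 with cordyceps, just past the error, and 0.32 with sunitinib, within it. ARRDC4 had levels of 1.51, 1.43 and 1.04 and log2 ratios of -0.08 and -0.55, the second past the error. Neither of the glucose-sensing targets passed 2-fold, and the sign of the TXNIP ratio with sunitinib was negative with scaling to the median, without scaling and with normexp correction.

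Set against all genes, the share of members with ratios past the error differed by treatment. With cordyceps 10 of 40 measured members were higher and 10 were lower past the 95% limit (25.0% each), beside 15.0% and 13.5% of 13031 genes measured on both arrays. With sunitinib 6 were higher (15.0%) and 13 lower (32.5%), beside 22.6% and 21.9% of 12995 genes. The members are bright genes, 22 of the 40 lying in the brightest of 4 equal groups of genes by signal, and with sunitinib the median log2 ratio of these 22 was -0.15 beside 0.00 for all genes of that group. With cordyceps it was 0.00 beside 0.07. The error is larger for dim genes, and the shares past it were not compared at like brightness. They are therefore not read as a trait of the members.

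**Figure D3:**
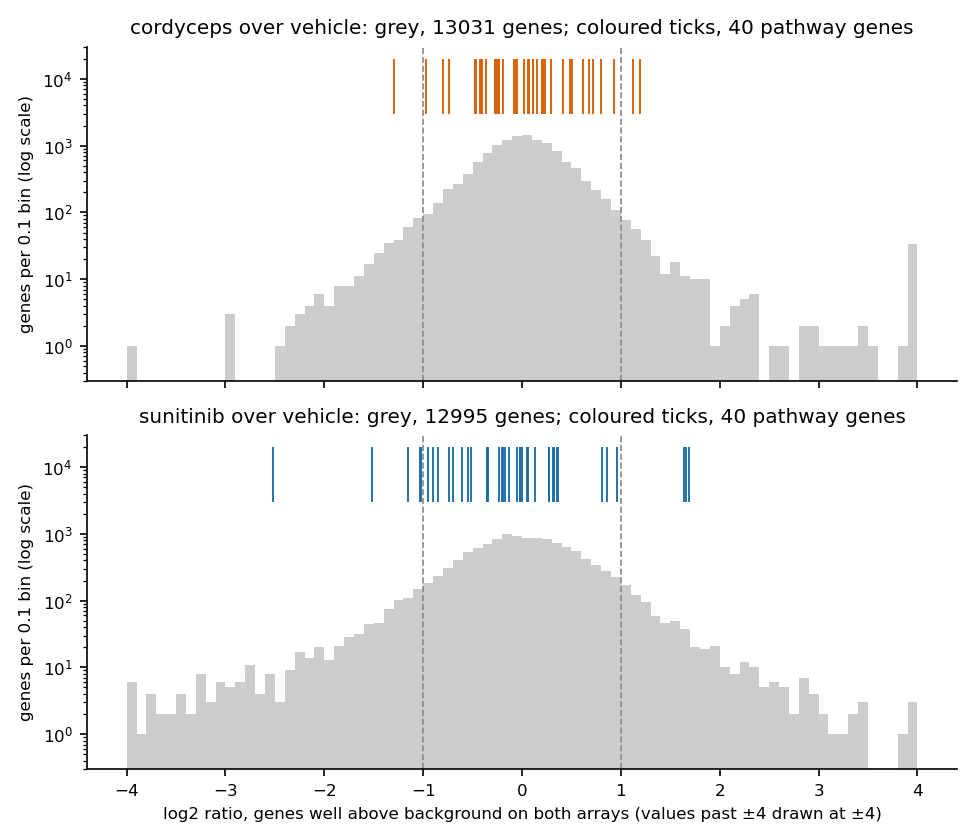
Distribution of log2 ratios over all genes measured on both arrays, for cordyceps and for sunitinib over vehicle, as the number of genes per bin of 0.1 on a log axis, with the 40 measured glycolysis and hypoxia-response genes as coloured ticks. Most ticks fall inside the 2-fold lines, with HK2 at -2.52 to the left and NDRG1, ANGPTL4 and EPAS1 to the right for sunitinib.

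Other genes of the same pathways were described from hand-written lists. Among 27 further genes of glycolysis and pyruvate metabolism that were compared, none passed 2-fold with cordyceps, where 5.75% of all genes did (median of the 27, 0.00). With sunitinib 4 were higher and 3 lower (median 0.10). These are 14.8% and 11.1% of the list, beside 6.5% and 6.53% of all genes compared. The pyruvate dehydrogenase kinases PDK4 and PDK3, isoforms of PDK1, had log2 ratios of 1.91 and 1.70 with sunitinib, where PDK1 had -1.16. The level of PDK4 was 0.304 with vehicle and 1.14 with sunitinib, and that of PDK3 was 0.738 and 2.39. Without scaling their ratios were 0.83 and 0.62, within 2-fold. PDK2, named after its values were seen, stood at 3.88 and 9.29, a log2 ratio of 1.26 that fell below 2-fold with scaling to the median, without scaling, with normexp correction and with the mean of its probes. PDP1, the phosphatase that opposes these kinases, stood at 39.9 with vehicle and 16.5 with sunitinib (log2 ratio -1.27) and had a ratio of 0.83 with cordyceps.

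HKDC1, a hexokinase-like enzyme of epithelia, had levels of 47.9 on the vehicle array, 49.5 on the cordyceps array and 13.3 on the sunitinib array. Its log2 ratio with sunitinib was -1.85, so that HKDC1 and HK2 were lower and HK1 was not past its error. ENO3, the muscle-type enolase, was lower with sunitinib by a log2 ratio of -1.55, and SLC2A12, a glucose transporter, was higher by 1.43 from a vehicle level of 0.179, a call lost without scaling, at 0.35, and with normexp correction.

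In the pentose phosphate pathway, 2 of 7 genes passed 2-fold, both higher with sunitinib, which is 28.6% beside 6.5% of all genes. TKT, the transketolase, had a log2 ratio of 1.14 and PGD, the phosphogluconate dehydrogenase, 1.01, and neither was past 2-fold with scaling to the median, without scaling or with normexp correction, nor TKT with quantile normalization. Without scaling the ratio of PGD was -0.06. No gene of gluconeogenesis (4 compared) or of glycogen metabolism (10 compared) passed 2-fold in either comparison, where 5.75% of all genes did with cordyceps and 13.0% with sunitinib.

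Among 34 other HIF targets compared, none was more than 2-fold higher on either array, where 2.99% of all genes were with cordyceps and 6.5% with sunitinib. Lower were 2 with cordyceps and 6 with sunitinib, which is 5.88% and 17.6% beside 2.76% and 6.53% of all genes. VEGFA, the main angiogenic ligand, had levels of 19.3 on the vehicle array, 26.9 on the cordyceps array and 3.75 on the sunitinib array, with log2 ratios of 0.48 and -2.37. LOXL2, a collagen cross-linking oxidase, was lower by a log2 ratio of -1.69 with sunitinib. IGFBP3, which binds insulin-like growth factors, had a log2 ratio of -2.10 with cordyceps and -1.61 with sunitinib, and STC2, a secreted glycoprotein, -1.06 and -1.60. With scaling to the median the cordyceps ratio of STC2 was -0.84, within 2-fold. The medians of the list were -0.02 with cordyceps and -0.20 with sunitinib.

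Of 14 genes that regulate HIF or partner with MondoA, 2 were lower with cordyceps and none passed 2-fold with sunitinib (medians -0.34 and -0.05). The 2 are 14.3% of the list, beside 2.76% of all genes. With sunitinib 13.0% of all genes passed 2-fold either way. CREBBP, a histone acetyltransferase and HIF coactivator, stood at 4.30 on the vehicle array and 1.94 on the cordyceps array (log2 ratio -1.15). ARNT2, a relative of ARNT, stood at 16.2 and 7.97 (log2 ratio -1.02). Both lost the 2-fold mark with scaling to the median, CREBBP also with normexp correction and ARNT2 also with the streak left out.

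**Figure D4:**
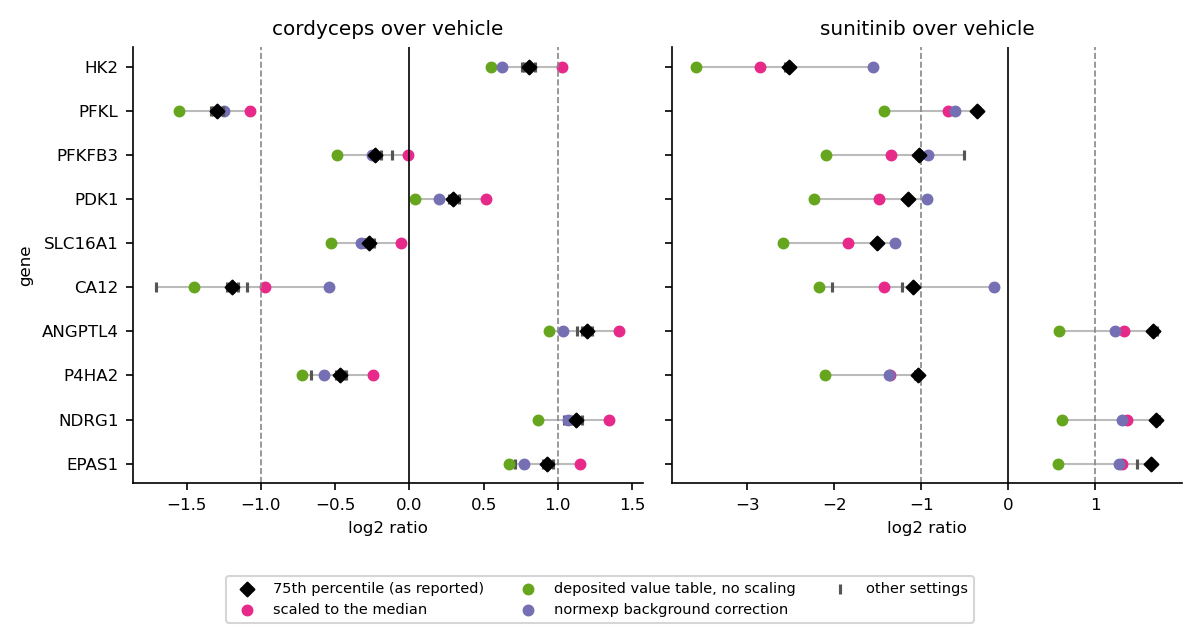
Log2 ratio of the genes past 2-fold under the reported setting and each alternative. HK2, SLC16A1 and P4HA2 with sunitinib and PFKL with cordyceps stay beyond the 2-fold line throughout, while ANGPTL4, NDRG1 and EPAS1 fall inside it without scaling between arrays.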

How the data were processed

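The authors deposited, for each array, the Feature Extraction 11.5.1.1 output, in which the processed signal is a background-subtracted intensity on a linear scale, and a table of the same intensity values for all probes, not scaled between arrays. The array design names build hg19. The study's methods describe a two-colour array and significance analysis of microarrays, which could not be applied to single arrays, so that their 2-fold limit alone was kept. No column holds the authors' own comparisons.

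From 62976 spots an array, control spots and those marked as outliers were left out, replicate spots were averaged by probe, and the log2 value relative to the 75th percentile of all probes was taken (Python 3.11.15, pandas 2.3.3). RefSeq accessions of GRCh38.p14 named 31104 of 58201 probes. The brightest probe by mean signal over the arrays compared stood for a gene. Where the dimmer side was not well above background it was set to the lowest signal well above background, or to its own if higher, and the ratio is a bound. A bound not above 1 counted as 0 in medians. Without replicates, no test was run. Signals are printed for genes past 2-fold, for the HIF pathway, TXNIP and ARRDC4, and for the brightest gene of each glycolytic step, with other members by ratio. From each further pathway list the 3 genes with the largest ratio in each direction past 2-fold are named, except an item that is not reported here, and marker genes were named after their values were seen. The members and lists were chosen with earlier results of these data known. The alternatives were 4 other scalings, limma 3.58.1 normexp (offset 50), other filters and limits, the mean of probes, outlier spots kept and the streak left out. The calculation was tested on simulated data in which only bright genes were changed, by well over 2-fold. Changes in dim genes, bounds and ratios near 2-fold were not covered.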

Additional observations from a re-analysis of the deposited data

How the results depend on the processing

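For cordyceps, the reported 2 genes higher, 2 lower and median log2 ratio of -0.06 became 4, 1 and 0.16 with scaling to the median, and 0, 4 and -0.31 with the deposited values unscaled. The number lower was 1 with normexp correction and 1 with a requirement for detection on both arrays, and a limit of 1.5-fold gave 7 higher and 5 lower. For sunitinib, the reported 3 higher, 6 lower and median of -0.18 became 11 lower and a median of -0.51 with scaling to the median, and 0 higher, 29 lower and a median of -1.26 without scaling, and 1.5-fold gave 6 higher and 12 lower. Over all genes, the higher share of those past 2-fold was 52.0% for cordyceps, 77.0% with scaling to the median, 25.4% without scaling and 62.7% without a filter. For sunitinib it was 49.9%, 21.5%, 2.01% and 80.4%, and 28.2% with normexp correction. Median scaling moved the median of all genes by 0.18 for cordyceps and -0.31 for sunitinib. The cause of these shifts was not tested. Signal over background limits CA12, SLC2A3, ALDOC, CA9 and EGLN3 to bounds or no ratio. No paired analysis was possible because each condition had 1 array.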
